A study of Mus musculus with 6 samples.

Results

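Expression of 10 pigment-cell genes was followed by RNA-seq in the mouse cochlea, the organ of hearing: Dct, Tyr, Tyrp1, Pmel, Mlana, Slc45a2, Slc24a5, Oca2, Gpr143 and Trpm1. They were chosen by symbol as genes of melanin synthesis and of melanosome proteins, and the 10 are among 48709 mouse genes in the count table. Of these 10, 8 had enough reads to be tested, and Oca2 and Gpr143 did not. The libraries came from 3 mice homozygous for Hgf del10Neo (knock-in), whose allele lacks 10 bp of intron 5 of Hgf and, by its label, carries Neo, and from 3 Hgf+/+ littermates (wild-type). The mice were 5 to 27 weeks old, and neither an agent nor a Cre driver is named in the labels. The labels do not tie an age to a mouse. Whole cochleae were pulverized, so the RNA of all cochlear cell types was mixed. The mice of a group were separate animals, by their labels.

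In the adult cochlea, pigment cells lie in the stria vascularis as intermediate cells, which derive from the neural crest and carry the potassium channel that sets the endocochlear potential. Melanin is made in the melanosome, a lysosome-related organelle. Tyrosinase (Tyr) catalyses the first, limiting step from tyrosine, and Dct and Tyrp1 encode related enzymes that act on later intermediates of eumelanin. Pmel forms the fibrils on which melanin is laid down, and Mlana encodes a partner protein of Pmel in early melanosomes. Slc45a2, Slc24a5 and Oca2 encode transport proteins that set the ionic conditions of the organelle. Gpr143 encodes a receptor of the melanosome membrane, and Trpm1 a cation channel known from melanocytes and retinal bipolar cells. MITF, the master regulator of melanocytes, is known to bind an E-box variant, the M-box, in the promoters of the tyrosinase family.

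The start regions of the members are shown because the values below differ between members, and these stretches hold a run of bases that several of them share. RefSeq windows (GRCm38.p6) of 250 bases before to 50 after the start were matched for 6 of 10 members, namely Dct, Tyr, Tyrp1, Trpm1, Slc24a5 and Oca2. The longest run of bases that the upstream parts of Dct, Tyr and Tyrp1 share is GTCATGTGCT, of 10 bases, present on either strand in 0.186% of 32851 windows. Its inner 7 bases, TCATGTG, were searched on both strands (reverse complement CACATGA). They are part of the shared run, so their presence in Dct, Tyr and Tyrp1 follows from the choice. Of the other 3 matched members, Trpm1 and Slc24a5 held them and Oca2 did not, and 3.77% of all windows hold them. In the lines below the capitals mark this match, and every sequence runs 5′ to 3′ on the strand of the gene.
Dct: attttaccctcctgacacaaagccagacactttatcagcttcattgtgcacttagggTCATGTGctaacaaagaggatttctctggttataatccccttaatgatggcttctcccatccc
Tyr: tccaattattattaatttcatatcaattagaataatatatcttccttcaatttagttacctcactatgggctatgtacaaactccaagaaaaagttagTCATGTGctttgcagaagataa
Tyrp1: gtggggagggagTCATGTGctgcctagtag
Trpm1: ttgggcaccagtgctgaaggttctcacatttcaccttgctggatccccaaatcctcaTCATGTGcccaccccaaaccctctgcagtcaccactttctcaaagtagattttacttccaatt
Slc24a5: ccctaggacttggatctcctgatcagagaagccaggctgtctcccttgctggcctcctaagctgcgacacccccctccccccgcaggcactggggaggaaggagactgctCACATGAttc
The Dct stretch is chr14:118052335-118052454 on the reverse strand, and its match begins 151 bases before the start. A second Dct match, on the opposite strand, begins 232 bases before the start and lies outside the stretch. The Tyr stretch is chr7:87493513-87493632 on the reverse strand, with a match 22 bases before the start. The Tyrp1 stretch is chr4:80834154-80834183 on the forward strand, with a match 47 bases before the RefSeq start, inside a first exon of GENCODE release M21. The Trpm1 stretch is chr7:64153636-64153755 on the forward strand, with a match 142 bases before the start. The second Trpm1 window and the Oca2 window held none of these 7-base matches. The Slc24a5 stretch is chr2:125068004-125068123 on the forward strand, with a match on the opposite strand 13 bases before the start. Slc24a5 thus held the 7 bases although its RNA did not pass the test between groups (below), and a match describes only these letters.

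The libraries held 24005234 to 42312291 gene counts each. Values below are CPM, counts per megaread after TMM scaling, a correction for library composition. Reads of the Neo cassette numbered 71 and 199 in knock-in replicates 1 and 2 but 5 in the library labelled knock-in replicate 3, against 5, 8 and 10 in wild-type. Results are therefore also given without that library. Xist was abundant only in wild-type replicate 2 and knock-in replicate 3. Because the samples are bulk tissue, fewer pigment cells and less RNA per pigment cell cannot be told apart.

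The comparison of knock-in with wild-type cochlea asked which of these genes differed between the groups. Dct, Tyr, Mlana and Slc45a2 fell, each between 4.24-fold and 6.47-fold. None of the 8 tested members was called higher. Oca2, too low to test, had a scaled ratio of knock-in to wild-type of 1.78 (interval 0.97 to 3.35) with overlapping groups (below). Pmel and Slc24a5 had overlapping groups and did not pass the test, and Tyrp1 and Trpm1 were lower on average without passing the test. In edgeR's quasi-likelihood test, with Benjamini-Hochberg adjustment over 20733 genes and a threshold of 0.05, 4 of the 8 tested members were lower, where 0.0241% of all genes tested were. That share is 5 genes, 4 of them these members, and the members were chosen with earlier results of these data known. In the other direction edgeR called 0 of 8, against 0.00965% of all genes. DESeq2 also called 0 of the 8 higher, where it called 9 genes in all. At an unadjusted p under 0.05 in edgeR 0 of 8 were higher, beside 526 of the 20733 genes. With so few members, 0 of 8 is close to each of these shares. For 5 of the 8, Dct, Tyr, Mlana, Slc45a2 and Trpm1, the 3 knock-in values were all under the 3 wild-type values. That holds for 4.02% of all genes tested, and the opposite order, shown by 0 of 8 members, holds for 4.7%. The median log2 fold change of the 8 was -1.99, beside 0.00082 over all genes tested. DESeq2 called 5 members lower, the 4 above and Trpm1, against 0.0772% of genes, and the authors' deposited table lists the same 5, against 0.102% of its features.

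**Figure D1:**
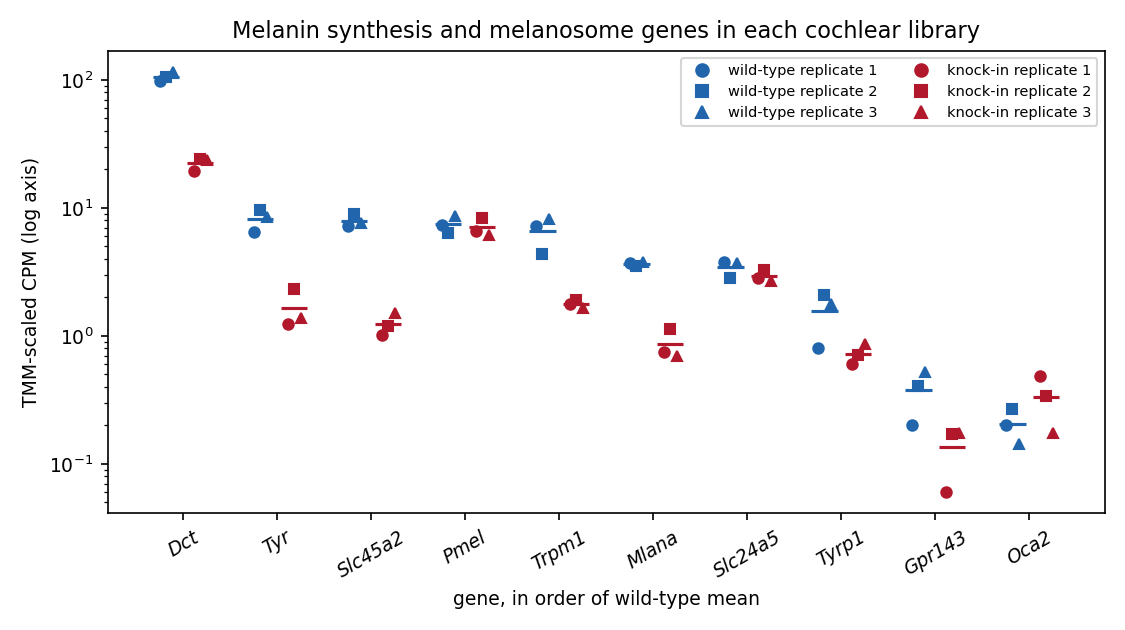
TMM-scaled CPM (log axis) of the 10 genes in each library, wild-type in blue and knock-in in red, symbols for the replicate number and a line for the group mean (n = 3). The knock-in points of Dct, Tyr, Slc45a2, Trpm1, Mlana and Gpr143 (the last at 2 to 22 counts per library) all lie below the wild-type points. Those of Pmel, Slc24a5, Tyrp1 and Oca2 overlap them.

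Among the enzymes, Dct (ENSMUSG00000022129, chromosome 14, 118012790 to 118052244, reverse strand, GRCm38) drew the most reads. Wild-type libraries held 98.5, 104.6 and 115.9 CPM of Dct, and knock-in libraries 19.3, 24.3 and 23.6. The groups are far apart, with no knock-in library near the wild-type range. Means were 106.3 ± 8.85 CPM in wild-type and 22.4 ± 2.74 CPM in knock-in (SD, n = 3 each). The log2 fold change was -2.25 (SE 0.12, adjusted p = 0.000179). Tyr (ENSMUSG00000004651, chromosome 7, 87424771 to 87493512, reverse strand) had wild-type values of 6.51, 9.58 and 8.54 CPM and knock-in values of 1.24, 2.32 and 1.39 CPM. Knock-in replicate 2 was the highest of its group for Tyr and still below every wild-type library. Its log2 fold change was -2.32 (SE 0.26, edgeR adjusted p = 0.0205).

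Tyrp1 (ENSMUSG00000005994, chromosome 4, 80834123 to 80851719, forward strand), a further enzyme of the family, behaved less evenly. Its libraries had wild-type values of 0.803, 2.08 and 1.79 CPM and knock-in values of 0.603, 0.716 and 0.866 CPM. Wild-type replicate 1 lay inside the knock-in range, and the other wild-type libraries above it. The log2 fold change was -1.13 (SE 0.36), with an edgeR adjusted p of 0.966 and counts of only 20 to 75 per library. Without wild-type replicate 1 it was -1.42, and without wild-type replicate 2 it was -0.89. The edgeR adjusted p over all alternatives was between 0.268 and 0.9999.

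Pmel and Mlana, the gene of its partner protein, parted ways. Mlana (ENSMUSG00000024806, chromosome 19, 29697824 to 29708634, forward strand) had wild-type values of 3.69, 3.5 and 3.79 CPM and knock-in values of 0.754, 1.13 and 0.693 CPM. The wild-type values were close to each other, and all exceeded the knock-in values. The log2 fold change of Mlana was -2.08 (SE 0.23, edgeR adjusted p = 0.0205). Pmel (ENSMUSG00000025359, chromosome 10, 128704195 to 128720238, forward strand), the fibril protein gene, had wild-type values of 7.39, 6.42 and 8.69 CPM and knock-in values of 6.66, 8.32 and 6.15 CPM. The 2 groups were interleaved. Its log2 fold change was -0.09 (SE 0.17, edgeR adjusted p = 0.982).

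The transporters parted in the same way. Slc45a2 (ENSMUSG00000022243, chromosome 15, 11000721 to 11029233, forward strand) had wild-type values of 7.27, 8.97 and 7.68 CPM and knock-in values of 1.03, 1.19 and 1.52 CPM. It had the largest fold of the 8 tested members, with a log2 fold change of -2.69 (SE 0.2, edgeR adjusted p = 0.00153). Slc24a5 (ENSMUSG00000035183, chromosome 2, 125068124 to 125088677, forward strand) had wild-type values of 3.78, 2.86 and 3.7 CPM and knock-in values of 2.83, 3.27 and 2.68 CPM. The groups overlapped, and the log2 fold change was -0.23 (SE 0.19, edgeR adjusted p = 0.966). Trpm1 (ENSMUSG00000030523, chromosome 7, 64153835 to 64269775, forward strand), the channel gene, had wild-type values of 7.19, 4.4 and 8.16 CPM and knock-in values of 1.78, 1.91 and 1.65 CPM. Wild-type replicate 2 was the low one of its group, yet above every knock-in library. The log2 fold change of Trpm1 was -1.89 (SE 0.25, edgeR adjusted p = 0.0573). Without wild-type replicate 2 the adjusted p was 0.0112, and with Xist as a covariate it was 0.0108. Over all alternatives it was between 8.67e-09 (DESeq2) and 0.257. The part of Xist-linked differences between mice in the Trpm1 value was not tested further.

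The calls of Tyr and Mlana depended on which libraries were kept. Both held without knock-in replicate 1 (edgeR adjusted p = 0.0401 for Tyr and 0.0449 for Mlana) or knock-in replicate 2 (0.0107 and 0.0244). Both were lost without wild-type replicate 2 (edgeR adjusted p = 0.0884 for each), wild-type replicate 3 (0.141 for each) or knock-in replicate 3 (0.079 for each), and that of Mlana also without wild-type replicate 1 (0.111), where Tyr kept its call (0.0448). Their log2 fold changes without wild-type replicate 1, 2 or 3 or knock-in replicate 3 were between -2.46 and -1.97. Without knock-in replicate 3, the library low in Neo, 2 members were called, Dct (-2.29, edgeR adjusted p = 0.00123) and Slc45a2 (-2.85, 0.00264). In that fit Trpm1 was at -1.84 (0.193), Tyrp1 at -1.27 (0.999), Slc24a5 at -0.18 and Pmel at -0.01. At an unadjusted p under 0.05 in the same edgeR fit, 7 members were lower and 1 higher, beside 405 and 415 over all genes. The higher one was Oca2, the only member above wild-type without that library. Oca2 and Gpr143, below the filter with all libraries, are among these members because fewer libraries had to meet the filter in this fit. Oca2 met it through its knock-in libraries and Gpr143 through its wild-type libraries, the group where each was high. Their place in these unadjusted counts is therefore no support for a difference. Without wild-type replicate 3 Dct and Slc45a2 were likewise the 2 called.

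**Figure D2:**
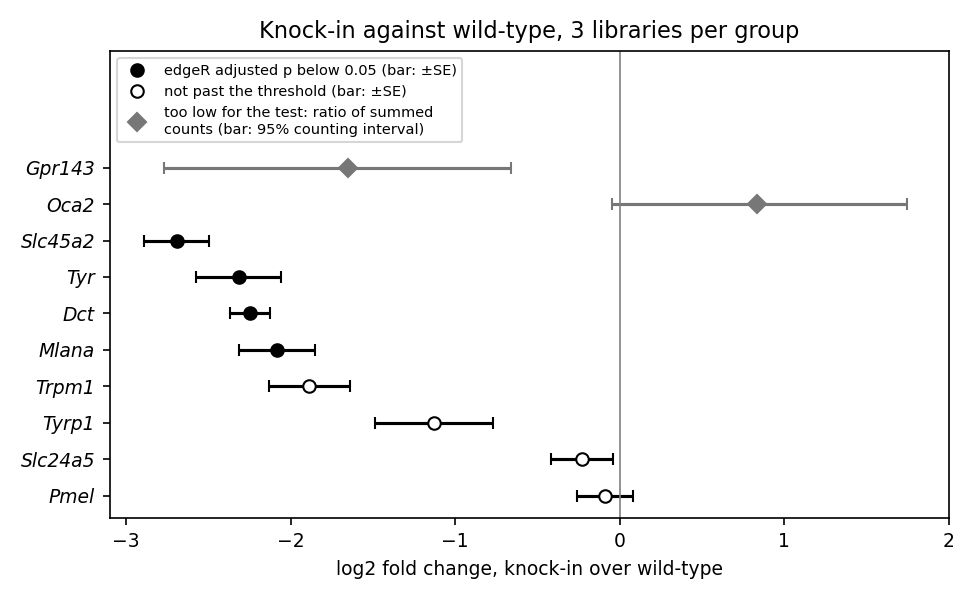
Log2 fold change of knock-in over wild-type for the 10 genes (3 libraries per group): filled circles passed the edgeR threshold, open circles did not (bars, ±SE), and grey diamonds are ratios of summed counts for genes too low to test (bars, 95% counting interval). Slc45a2, Tyr, Dct and Mlana stand between -2.69 and -2.08, and Slc24a5 and Pmel stand near 0.

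Both members below the filter had few reads. Gpr143 (ENSMUSG00000025333, chromosome X, 152781921 to 152808646, forward strand) had 5, 12 and 22 counts in the wild-type libraries and 2, 5 and 4 in the knock-in libraries. At 0.201 to 0.525 CPM in wild-type and 0.0603 to 0.173 CPM in knock-in, its groups did not overlap. The margin was narrow, as wild-type replicate 1 and knock-in replicate 2 both had 5 counts. The share of genes this low whose groups do not overlap was not counted. Summed counts scaled to library size were 3.14-fold lower in knock-in (exact 95% interval 1.58 to 6.81 from counting error alone). Oca2 (ENSMUSG00000030450, chromosome 7, 56239760 to 56536518, forward strand) had 5, 8 and 6 counts in wild-type and 16, 10 and 4 in knock-in. Knock-in replicate 1 was highest and knock-in replicate 3 inside the wild-type range, so the groups overlapped. The scaled ratio of knock-in to wild-type was 1.78 (interval 0.97 to 3.35), and leaving out 1 library gave 1.36 (without knock-in replicate 1) to 2.13 (without wild-type replicate 2, interval 1.04 to 4.71). Without knock-in replicate 3 it was 2.11 for Oca2 (interval 1.13 to 4.04), and Gpr143 was 3.61-fold lower (interval 1.6 to 9.56). With no filter, edgeR gave adjusted p = 0.636 for Gpr143 and 0.89 for Oca2, so neither passed the threshold across libraries.

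The summed level of the 10 members was 145.9 ± 12 CPM in wild-type and 39.1 ± 4.5 CPM in knock-in (SD, n = 3 per group). Dct alone made up 72.9 ± 0.212% of it in wild-type, where the 3 libraries lay between 72.7% and 73.1%. In knock-in the share was 57.3 ± 2.94%, between 55.5% and 60.7%. Without Dct the sum was 39.5 ± 3.13 and 16.7 ± 2.31 CPM. The groups did not overlap in this share, nor in either sum.

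Ratios of 2 genes within a library do not depend on how libraries are scaled, and they set each member beside Dct. The difference in log2 ratio to Dct between groups was tested by an exact two-sided permutation test, for which 0.1 is the smallest p that 3 libraries against 3 allow, so no ratio could pass 0.05. Tyr stood at 6.6, 9.16 and 7.37% of the Dct count in wild-type and 6.42, 9.52 and 5.87% in knock-in. The ranges coincided (difference -0.09, exact p = 0.7), although both genes fell more than 4-fold. The difference in log2 ratio to Dct was 0.15 for Mlana (exact p = 0.6) and 0.42 for Trpm1 (exact p = 0.2), also with overlapping groups. Slc45a2 went from 7.38, 8.58 and 6.63% of the Dct count to 5.32, 4.9 and 6.42%, below every wild-type library (difference -0.42, exact p = 0.1). Its fall was thus somewhat larger than that of Dct in these libraries, by a margin that the test could not call.

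The ratios of the other members to Dct were higher in knock-in. Pmel stood at 7.5, 6.14 and 7.49% of the Dct count in wild-type and at 34.6, 34.2 and 26.1% in knock-in. Every knock-in library was well above every wild-type library, and the ratio was 4.47-fold higher (log2 difference 2.16, exact p = 0.1). Slc24a5 went from 3.83, 2.73 and 3.19% to 14.7, 13.5 and 11.4% of the Dct count, 4.07-fold higher (exact p = 0.1). Tyrp1 went from 0.815, 1.99 and 1.54% to 3.13, 2.94 and 3.67%, 2.4-fold higher and without overlap (exact p = 0.1). Oca2, at 4 to 16 counts per library, was 7.26-fold higher relative to Dct (exact p = 0.1), and Gpr143 1.81-fold with overlapping groups (exact p = 0.3). Adjusted over the 9 ratios, the exact p was 0.18 for the 5 ratios at the smallest value, which include Slc45a2. Without knock-in replicate 3 the log2 differences were 2.29 for Pmel, 2.13 for Slc24a5, 1.17 for Tyrp1 and -0.53 for Slc45a2.

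Within the enzyme family, Tyrp1 stood at 12.4, 21.8 and 21% of the Tyr count in wild-type and at 48.8, 30.9 and 62.5% in knock-in, 2.56-fold higher with no overlap (exact p = 0.1). Pmel counts were 200, 183.7 and 228.9% of Mlana counts in wild-type and 884, 739.4 and 887.5% in knock-in, 4.03-fold higher (exact p = 0.1). The ratio of Tyrp1 to Pmel had overlapping groups, at 10.9, 32.5 and 20.6% in wild-type and 9.05, 8.61 and 14.1% in knock-in (exact p = 0.2). Adjusted over these 3 ratios the exact p were 0.15, 0.15 and 0.2.

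**Figure D3:**
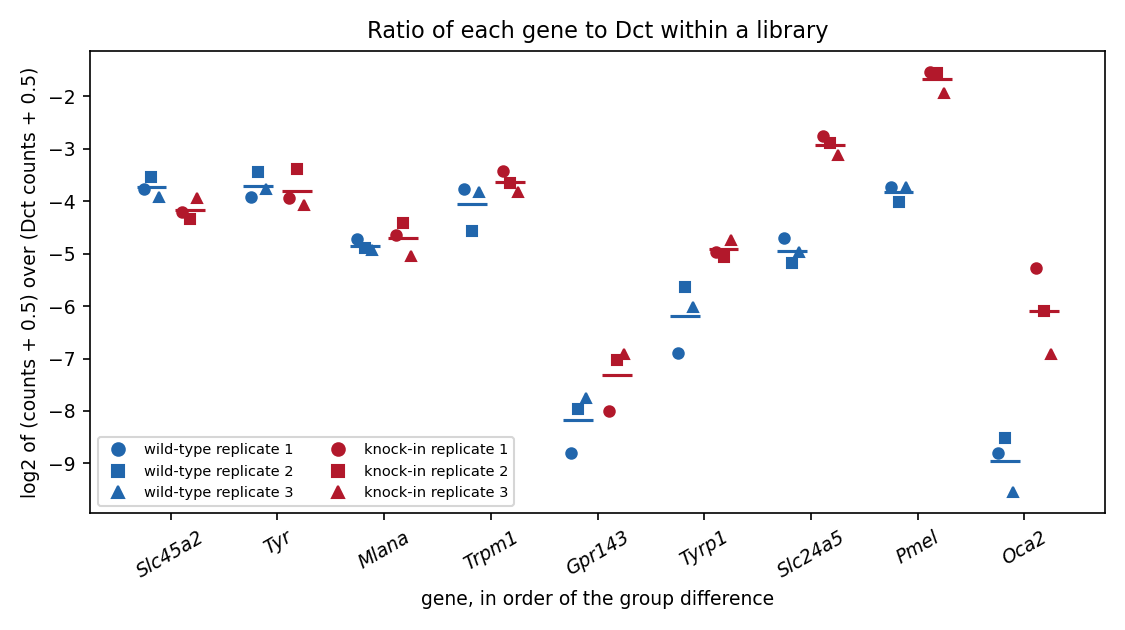
Log2 ratio of each gene to Dct within each library (0.5 added to both counts), wild-type in blue and knock-in in red, with a line for the group mean (n = 3). Tyr, Mlana and Trpm1 keep overlapping ratios, while Tyrp1, Slc24a5, Pmel and Oca2 stand higher in all 3 knock-in libraries.

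Levels of different genes were compared per kilobase of merged exons. In wild-type cochlea Dct was at 18 ± 1.5 CPM per kb, above Mlana at 3.46 ± 0.144, Pmel at 3.27 ± 0.496 and Slc45a2 at 2.67 ± 0.298 CPM per kb (SD, n = 3). The ranges of Mlana and Pmel overlapped, as did those of Pmel and Slc45a2. Next came Slc24a5 at 1.48 and Tyr at 1.16 CPM per kb, whose ranges overlapped, then Tyrp1 at 0.551 and Trpm1 at 0.447, which also overlapped. Gpr143 at 0.189 and Oca2 at 0.0516 CPM per kb were lowest. In knock-in cochlea Dct, at 3.8 ± 0.465 CPM per kb, was no longer separate from Pmel at 3.07 ± 0.494. Slc24a5, at 1.26 ± 0.131, came next, above Mlana (0.811), Slc45a2 (0.417), Tyrp1 (0.258) and Tyr (0.232), the last 2 with overlapping ranges. Trpm1, Oca2 and Gpr143 followed at 0.121, 0.0839 and 0.0675 CPM per kb, each overlapping the next. With the length of the longest transcript in place of merged exons, 8 of 10 genes kept their place in either group. The merged exons of Trpm1, from 23 transcripts, span 14746 bases and its longest transcript 5711, so its level per kb depends on the length used.

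**Figure D4:**
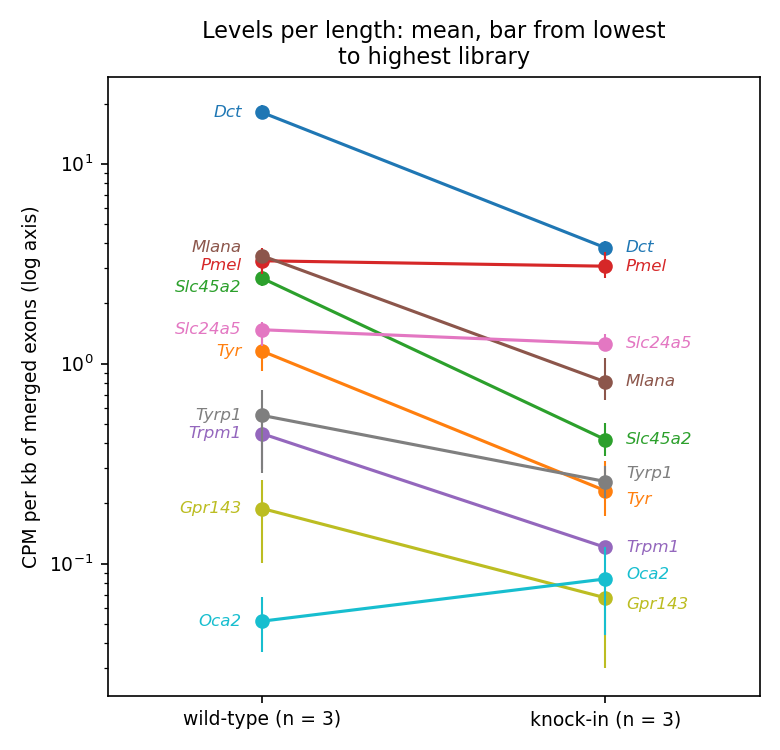
Mean level per kilobase of merged exons (log axis) of each gene in wild-type and knock-in cochlea (n = 3 each), with bars from the lowest to the highest library. The lines of Pmel and Slc24a5 run almost level, that of Pmel crosses Mlana, that of Slc24a5 crosses Mlana and Slc45a2, and Dct comes down to the range of Pmel.

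Of the members, 3 members share exon bases with genes on the opposite strand. Slc24a5 shares 921 bases, 39.5% of its merged exons, with Myef2. Pmel shares 34 bases at its start with Cdk2 and 105 bases at its end with Dgka, together 6.07%. Trpm1 shares 12 bases with Gm44722, and the other members, Tyrp1 and Oca2 among them, share none. Whether the counting used strand is not stated in the labels, and reads in shared exons cannot be assigned with certainty. Mean CPM of Cdk2, a cell cycle kinase gene, was 34.2 ± 6.53 for wild-type and 30.1 ± 0.769 for knock-in (SD, n = 3 each). For Dgka, a diacylglycerol kinase gene, it was 35 ± 3.17 and 34.2 ± 1.17, and for Myef2, a nucleic-acid-binding protein gene, 20 ± 2.46 and 16.3 ± 2.84. None of the 3 passed the edgeR test, with adjusted p of 0.966, 0.988 and 0.966. Pmel stood at 20.6 to 23.8% of the Cdk2 count in wild-type and 20.5 to 26.9% in knock-in (exact p = 0.7), and at 19.1 to 26.3% and 17.8 to 23.7% of the Dgka count (exact p = 0.7). Slc24a5 stood at 14.9 to 20.9% of the Myef2 count in wild-type and 14.7 to 20.5% in knock-in (exact p = 1.0). The groups overlapped for each of the 3 pairs, and the share of Pmel or Slc24a5 reads that came from the neighbour was not tested. Neighbours without shared exons, Amacr and Rxfp3 beside Slc45a2, were at log2 fold changes of 0.16 and -0.54, neither past the threshold (edgeR adjusted p = 0.972 and 0.966).

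**Figure D5:**
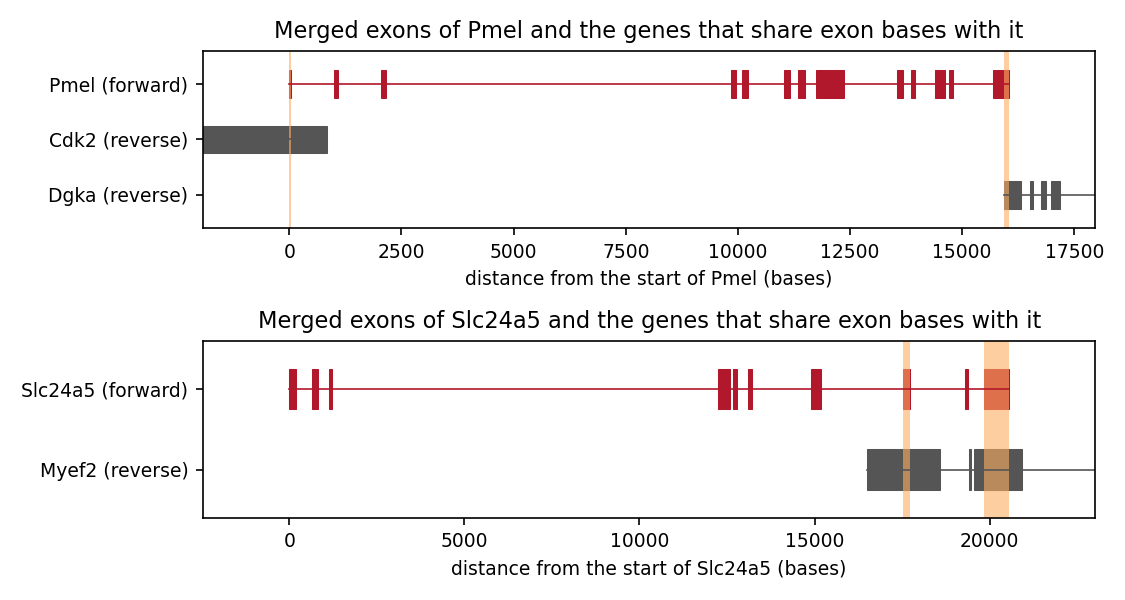
Merged exons (boxes) of Pmel with Cdk2 and Dgka, and of Slc24a5 with Myef2, along the distance in bases from the start of Pmel or Slc24a5; shading marks exon bases that both genes of a pair hold. The shared part is 139 bases for Pmel and 921 bases for Slc24a5.

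The genes with the profile most like Dct over the 6 libraries were ranked by the Euclidean distance of log2 CPM, centred on the wild-type mean, among 17506 genes. This centring leaves the group difference in the distance, so the order largely restates the log2 fold changes above. The first 4 were members: Mlana (distance 0.583), Tyr (0.613), Slc45a2 (0.759) and Trpm1 (1.03). The 5 nearest genes outside the set were Ighv1-15 (1.25), Igkv14-111 (1.39), Tspan10 (1.65), Igkv4-50 (1.67) and Ighv10-3 (1.73). Of these 5, 4 are variable segments of immunoglobulin heavy and kappa chain genes, multigene families whose counts are uncertain where reads match several copies. Tspan10, a tetraspanin gene, had wild-type values of 2.09, 2.08 and 2.65 CPM and knock-in values of 1.03, 0.818 and 0.693 CPM. Its groups did not overlap, with a log2 fold change of -1.42 (SE 0.24, edgeR adjusted p = 0.196). Genes near Dct by this distance are lower in knock-in by the way they were picked, and Tspan10 reached a mean of 1 CPM only in wild-type. Tyrp1 was 28th in this order, Slc24a5 1489th and Pmel 4689th.

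Further genes of the pigment pathway were taken from lists. Over all 20733 genes tested, 407 were lower and 526 higher at an unadjusted p under 0.05 in edgeR, which is the background for the unadjusted counts in these lists. Of 14 regulators of melanocytes, 12 were tested and 0 passed in either direction in edgeR or DESeq2, with 1 lower and 0 higher at an unadjusted p under 0.05. The median of these 12 was -0.07. Mitf had wild-type values of 31, 29.5 and 27.9 CPM and knock-in values of 27.4, 24.5 and 24.3 CPM, a log2 fold change of -0.21 (SE 0.1, edgeR adjusted p = 0.966) with no overlap between groups. Ednrb, the endothelin receptor gene, was at -0.36 and Pax3, a transcription factor gene of the lineage, at -0.45 (edgeR adjusted p = 0.966 for both). Of 26 genes of melanosome biogenesis and transport, all tested, 0 passed in edgeR and 1 was lower in DESeq2. At an unadjusted p under 0.05, 1 was lower and 1 higher, and the median of the 26 was -0.02. The lower one was Gpnmb, a melanosome glycoprotein gene, at 58.5, 50.1 and 51.6 CPM in wild-type and 32.6, 34.2 and 27.7 CPM in knock-in (log2 fold change -0.76, SE 0.11, edgeR adjusted p = 0.137). Bloc1s1 was at 0.63 and Rab27a, a GTPase gene of melanosome transport, at -0.22 (edgeR adjusted p = 0.966 for both).

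Markers of the cells that hold or neighbour the pigment cells were set beside these values. Of 7 further markers of intermediate cells, 6 had values below 0 on the log2 scale, at a median of -0.38, and 0 passed in edgeR (3 at an unadjusted p under 0.05, 1 in DESeq2, all lower). Gsta4, a glutathione transferase gene, was at -0.78 (edgeR adjusted p = 0.282), and Met, the HGF receptor gene, and Kcnj10, the potassium channel gene, were each at -0.43 (0.966). Mean CPM of Kcnj10 was 36.8 ± 3.94 for wild-type and 27.2 ± 2.99 for knock-in (SD, n = 3 each), with no overlap. Of 9 marginal cell markers, 0 passed in edgeR, in DESeq2 or at an unadjusted p under 0.05. Their median was 0.1, and their summed level was 962 to 1069 CPM in wild-type and 1002 to 1213 CPM in knock-in. For 3 basal cell markers the same counts were 0, with a median of 0.08 and sums of 128 to 154 and 142 to 150 CPM.

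Tissues outside the stria that can carry pigment or related RNA were also measured. The 7 epidermis markers, all detected, summed to 2.17 to 4.74 CPM in wild-type and 2.86 to 3.53 CPM in knock-in, with Krt10 highest of the 2 tested. The 6 markers of retina and retinal pigment epithelium summed to 6.83 to 8.75 and 7.39 to 8.53 CPM. Macrophage markers (8) summed to 543 to 820 and 595 to 640 CPM, with a median log2 fold change of -0.08. In these 3 lists 0 genes passed in edgeR or DESeq2, or at an unadjusted p under 0.05. Of Schwann cell markers, Egr2, a transcription factor gene of myelination, had a log2 fold change of -0.78 and Prx, the periaxin gene, of -0.54. Neither passed (edgeR adjusted p = 0.966 for both), although every knock-in library was below every wild-type library for both genes. The part of any of these cell types in the members' values was not tested.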

How the data were processed

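Ribosome-depleted total RNA was sequenced in pairs of 93 bases. According to the labels and to the submitters' processing notes, the authors used STAR 2.5.2 for mapping to GRCm38 (annotation vM11), and DESeq2 for testing. No counting program or strand setting was given in the sources used here. The deposited table of raw counts holds whole, unnormalized numbers, and its 24 rows that are no mouse gene were left out of library sizes and tests. Per the file headers, the authors' deposited comparison gives a mean normalized signal, log2 values (fold change and its standard error), a test score and p-values. The deposited regularized log2 table was not used.

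Counts were tested across all genes with edgeR 4.0.16 in R 4.3.3 (filterByExpr, TMM, glmQLFit and glmQLFTest, two-sided, group as the only term), and p-values were adjusted over 20733 genes. Each standard error is the absolute log2 fold change over the square root of F. Ratios within a library added 0.5 to each count. Names, exons and lengths came from GENCODE release M21 on the same build (48349 identifiers matched), and start windows from RefSeq. The script was tested on simulated data with 50 genes changed at each fold, all with a mean count of at least 50. At folds of 4 and 0.25 it recovered 50 of 50, at 2 it recovered 48 and at 0.5 it recovered 36. It also called 16 genes that were not changed. Tyrp1, Gpr143 and Oca2 lie below that mean count, so this recovery does not cover them. Alternatives were other normalizations and filters, DESeq2 1.42.0, limma-voom (3.58.1), the bias-adjusted quasi-likelihood, Xist as a covariate, other pseudocounts, the longest transcript as length, and leaving out each library. Ratios within a library were tested by exact permutation. Their adjustment and the exact counting intervals used scipy 1.17.1. No library repeated another (chi-square per degree of freedom at least 20.9). Replicate numbers follow accession order and pair no samples.

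The members, gene lists and tests were chosen with earlier results of these data known. Named genes are the 10 members, the 5 genes nearest to Dct in profile that reach 1 CPM on average in either group, up to 3 genes per list by smallest p, and genes that share exons with a member or lie next to it within 5 kb. One marker gene and the summary of its list are not reported here.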

Additional observations from a re-analysis of the deposited data

How the results depend on the processing

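Of 15 refits, Dct and Slc45a2 passed in 15, Tyr in 12, Mlana in 11, Trpm1 in 5 and Pmel, Slc24a5 and Tyrp1 in 0. All 8 tested members kept their direction in every refit that tested them, except Pmel, which was between -0.229 and 0.0287 when a library was left out and turned positive without wild-type replicate 3. Members called lower numbered 4 or 5 in the refits with all libraries and 2 to 4 when a library was left out. Over all genes, 30 were called lower and 46 higher with no filter on low counts, and 16 and 9 in DESeq2. With the Xist covariate 4 were called higher, and with the bias-adjusted quasi-likelihood and no filter, a pairing chosen after seeing the data, 7. Leaving out a library gave 2 to 8 lower and 0 to 13 higher. The 0 came without wild-type replicate 1 or 2, where 374 and 612 genes were higher at an unadjusted p under 0.05 in edgeR. The difference in log2 ratio of Tyr to Dct was between -0.2995 and 0.0436 when a library was left out, and turned positive without wild-type replicate 2 (0.0394) or knock-in replicate 3 (0.0436). The other 8 ratios to Dct kept their sign in every alternative. The cause of these changes was not tested. No paired analysis was possible because the labels give no replicate numbers shared between the groups. Counts of 2 to 22 per library limit Gpr143 and Oca2.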
